A study of Homo sapiens with 12 samples.

Results

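Hs695T cells, a human melanoma line, were exposed for 24 h to entinostat, and the arrays of these cells were set against those of cells that received the DMSO vehicle. The comparison took 6 of the 12 arrays of the series, which were all that carry these treatment labels: 3 arrays of entinostat at 1 µM and 3 arrays of vehicle. The other 6 arrays, 3 of dabrafenib at 100 nM with trametinib at 10 nM (MAPKi, inhibitors of BRAF and of MEK) and 3 of MAPKi combined with entinostat, were used for the shared estimate of the spread and for asking whether entinostat changed the same genes in cells that also received MAPKi. All groups were grown in serum-containing RPMI, and RNA spike-in standards were added before extraction. Titles describe the arrays as biological replicates and the design text describes technical triplicates, so the p-values below cover the spread between arrays of 1 cell line and no more. One probe set value was kept for each of 14599 named genes, as log2 of the deposited intensity, and every gene was tested with limma across all 12 arrays. A gene passed at an adjusted p (Benjamini-Hochberg over all 14599 genes) under 0.05, and only such genes are said to have risen or fallen.

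Entinostat is a benzamide that inhibits class I histone deacetylases. These enzymes act in large complexes, among them Sin3, NuRD and CoREST, that take acetyl groups off histones at promoters and enhancers, and their inhibition raises histone acetylation across the genome. Inhibitors of this class are known both for switching on genes that a cell type keeps silent, neuronal genes included, and for lowering many abundantly transcribed genes, among them regulators of cell division.

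The melanoma label was checked against marker genes. SOX10, a transcription factor of the neural crest lineage, had 8.73, 8.87 and 9.0 log2 units on the entinostat arrays, against 10.03, 9.77 and 10.08 on the vehicle arrays, and S100B, a calcium-binding protein of the same lineage, read 10.85 or higher on all 6 arrays. Among pigment genes TYR, TYRP1, OCA2 and MLANA stayed under 5 log2 units on all 6 arrays. They were the only 4 of 11 measured melanocyte and melanoma markers with means under 5 in each group. PMEL, a structural protein of pigment granules, had 7.06, 7.11 and 7.27 with entinostat, against 6.29, 5.89 and 6.04 with vehicle. Of 11 measured melanocyte and melanoma markers, SOX10 (-1.09), S100B (-0.57) and MLANA (-0.36) fell, and PMEL (1.07) and EDNRB (1.07), an endothelin receptor of the melanocyte lineage, rose. The summed intensity of these 11 markers ran from 2777.1 to 3029.0 on the entinostat arrays and from 3995.2 to 4436.6 on the vehicle arrays. Of markers of other cell types, 7 keratinocyte genes summed to at most 170.2 with entinostat and at most 191.9 with vehicle, and 3 fibroblast genes summed to at most 133.9 with entinostat and at most 102.0 with vehicle. Markers of endothelium summed to more with entinostat, between 749.3 and 782.5, than with vehicle, between 475.7 and 540.8. That sum is carried by KDR, a receptor of vascular growth factors, whose level rose by 0.79 log2 units (adjusted p = 5.9e-05, limma).

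On the deposited scale, 1513 genes rose with entinostat (10.4% of all tested) and 5424 fell (37.2%). Rises made up 21.8% of the calls. The median gene changed by -0.20 log2 units. After quantile normalization, which gives every array the same distribution of values, 2696 genes were higher (18.5%), 3082 were lower (21.1%), rises made up 46.7% of the calls, and the median change was -0.04. The deposited values also differed in brightness between arrays. The median intensity of an array was 48.33, 51.56 and 49.13 with entinostat, against 57.59, 50.64 and 51.59 with vehicle, and the mean intensity was 149.7, 158.5 and 156.3 with entinostat, against 203.6, 179.4 and 190.8 with vehicle. The arrays of both groups overlap in the median and not in the mean, which the brightest genes set. A total of 1445 genes rose and 3058 fell on both scales, and 2365 of the genes that fell as deposited passed in neither direction after quantile normalization. Each array holds bulk RNA, so fewer cells that carry a transcript and less of it per cell cannot be told apart, and neither can a fall of many bright genes and a lower overall yield.

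On the deposited scale, the balance of rises and falls differed with the level a gene had in vehicle. Genes were put in 3 classes by their vehicle mean: 3783 near background (under 5 log2 units, an intensity of 32), 4958 intermediate, and 5858 well expressed (7 and above, an intensity of 128). The cut at 5 is a level and not a detection call. The genes next to it lie at 4.9993 and 5.0005, and 467 genes lie within 0.1 of it. Near background, 404 genes rose (10.7%) and 130 fell (3.44%), with a median change of 0.004. Among well expressed genes, 424 rose (7.24%) and 3867 fell (66.0%), with a median change of -0.48. The intermediate genes stood between them, with 685 rises, 1427 falls and a median of -0.18. The classes differed less after quantile normalization. Then 1362 well expressed genes were higher (23.3%) and 2195 lower (37.5%), with a median of -0.10, and 364 near-background genes were higher (9.62%) and 107 lower (2.83%). On that scale both rises and falls were more frequent among well expressed genes than near background, while falls outnumbered rises only in the well expressed class.

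The same contrast can be read on each array as the median of the well expressed genes minus the median of the near-background genes, each gene taken relative to its vehicle mean. It was -0.50, -0.47 and -0.48 log2 units on the entinostat arrays, against 0.05, -0.09 and 0.04 on the vehicle arrays. No entinostat array came near a vehicle array. The difference of means was -0.485, from -0.484 ± 0.013 with entinostat and 0.001 ± 0.078 with vehicle (SD, n = 3 each; exact two-sided permutation p = 0.1, the smallest that 3 against 3 arrays can give). The vehicle mean near 0 is built in by the reference, and the permutations redrew neither the reference nor the classes. With classes set from the MAPKi arrays, and the same reference, the difference was -0.448. After quantile normalization the difference between the groups was -0.10 (exact permutation p = 0.1), so most of its size went with the scale while its sign stayed.

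**Figure D1:**
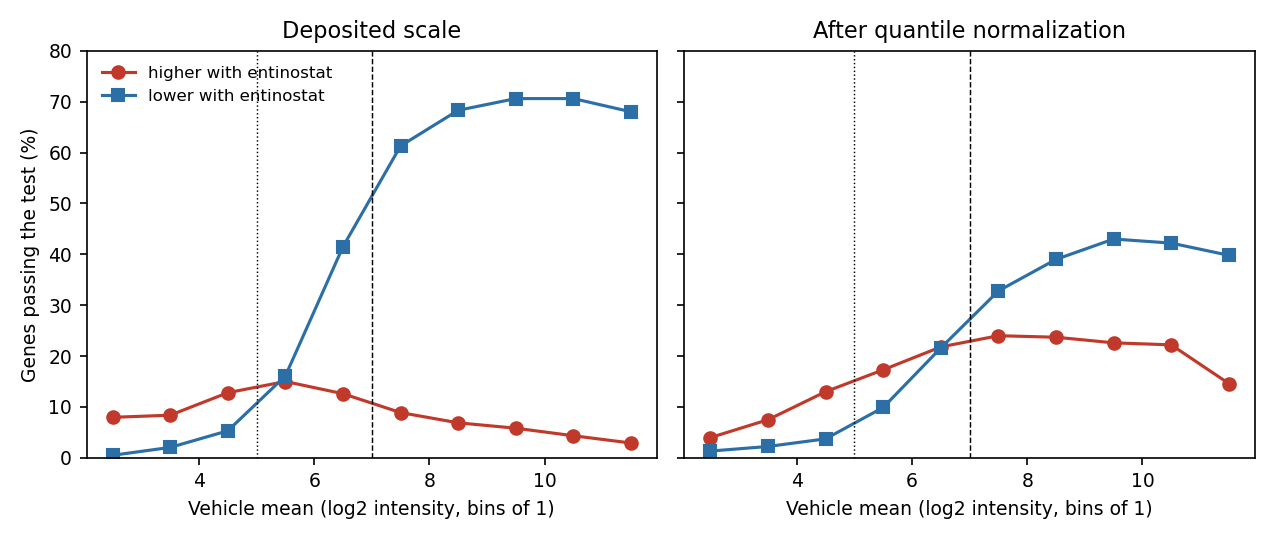
Percentage of genes that passed the limma test as higher (circles) or lower (squares) with entinostat, in bins of 1 log2 unit of the vehicle mean, on the deposited scale (left) and after quantile normalization (right). The dotted and dashed lines mark the class limits at 5 and 7. On the deposited scale the share of falls climbs to 70.6% in the bins from 9 to 11, while the share of rises is highest, at 15%, between 5 and 6. After quantile normalization the share of falls is highest, at 43.0%, between 9 and 10, and the share of rises, at 24.0%, between 7 and 8.

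Large changes were spread unevenly over the classes. On the deposited scale, near background, 102 genes rose by more than 1 log2 unit and 4 fell by as much, and past 2 log2 units there were 22 rises and no fall. The intermediate class held 188 rises and 77 falls past 1 log2 unit, and 27 rises and no fall past 2. Among well expressed genes 55 rose and 711 fell by more than 1, and 6 rose and 19 fell by more than 2. After quantile normalization the well expressed balance turned over, to 169 rises and 143 falls past 1 and 9 rises and 3 falls past 2, and near background there were 96 rises and 3 falls past 1. The spread between arrays differed less between the classes: the median standard error of a change was 0.14 near background and 0.11 among well expressed genes. How far a gene near background can fall is limited by its level.

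**Figure D2:**
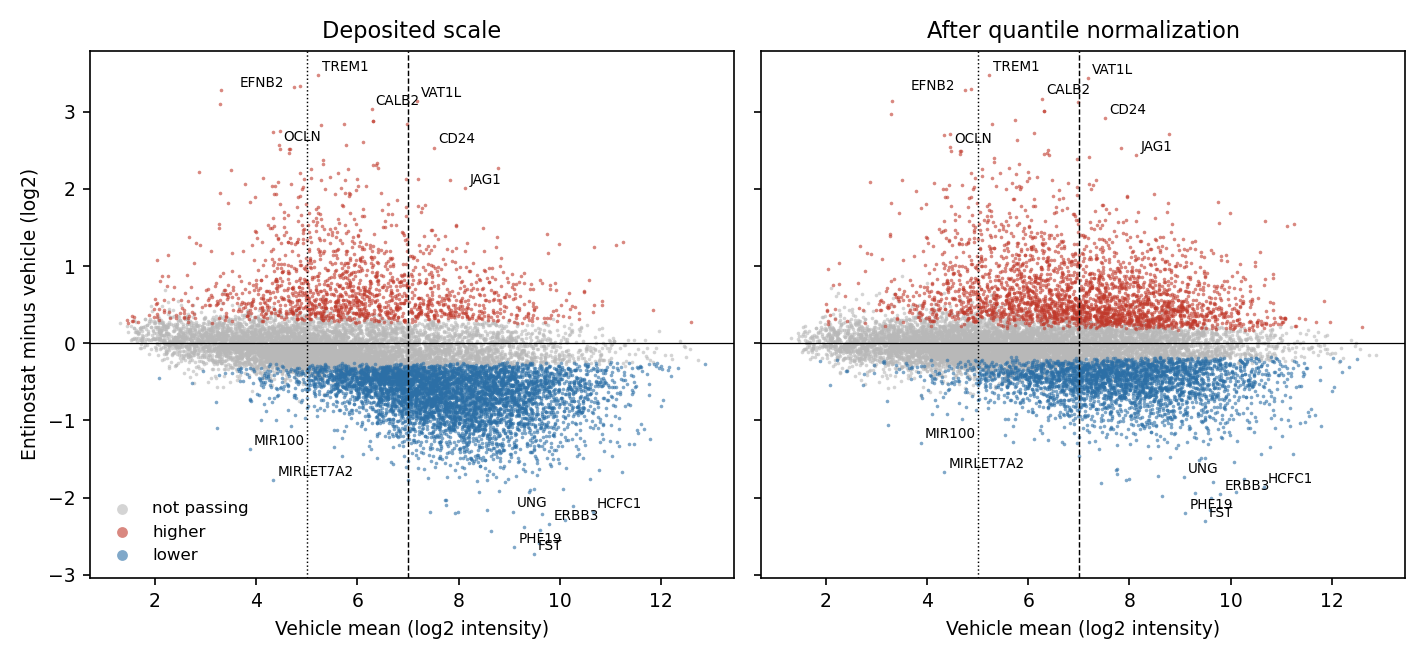
Change with entinostat (entinostat minus vehicle, log2) against the vehicle mean (log2 intensity) for 14599 genes, on the deposited scale (left) and after quantile normalization (right), with genes that passed as higher or lower coloured. EFNB2 and OCLN start under the dotted line at 5 and rise by over 2 log2 units on both scales, and the well expressed FST and PHF19 fall by over 2 on both.

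The upstream sequences of 5 genes are printed because these genes carry the extremes of both classes: ENPP5, EFNB2 and ANKRD1 had the largest rises among near-background genes with an entry in the promoter table, and FST and PHF19 the largest falls among well expressed genes. Each run gives the 250 bases before the annotated gene start from RefSeq (GRCh38.p14), 5′ to 3′ on the strand of the gene. Capitals mark matches, on either strand, to the GC box GGGCGG, to CCAAT, to TATAAA, to the AP-1 motif TGANTCA, to the CRE motif TGACGTCA, or to the E2F motifs TTTGGCGC and TTTCCCGC.
ENPP5 (chr6:46170981-46171230, minus strand): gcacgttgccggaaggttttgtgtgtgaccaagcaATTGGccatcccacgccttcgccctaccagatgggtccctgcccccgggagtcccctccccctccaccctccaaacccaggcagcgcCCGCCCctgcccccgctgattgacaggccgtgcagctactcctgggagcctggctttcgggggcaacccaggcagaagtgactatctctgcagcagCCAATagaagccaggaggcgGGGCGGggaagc
EFNB2 (chr13:106535663-106535912, minus strand): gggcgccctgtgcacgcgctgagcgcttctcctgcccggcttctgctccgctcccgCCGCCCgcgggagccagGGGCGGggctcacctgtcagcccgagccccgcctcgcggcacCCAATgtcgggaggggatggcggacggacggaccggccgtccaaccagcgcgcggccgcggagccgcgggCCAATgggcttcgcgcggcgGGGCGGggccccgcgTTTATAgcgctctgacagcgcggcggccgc
ANKRD1 (chr10:90921088-90921337, minus strand): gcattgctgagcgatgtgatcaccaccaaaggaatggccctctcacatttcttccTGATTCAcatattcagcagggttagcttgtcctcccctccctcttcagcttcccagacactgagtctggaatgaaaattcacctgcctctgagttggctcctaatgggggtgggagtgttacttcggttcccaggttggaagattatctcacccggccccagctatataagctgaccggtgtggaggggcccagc
FST (chr5:53480379-53480628, plus strand): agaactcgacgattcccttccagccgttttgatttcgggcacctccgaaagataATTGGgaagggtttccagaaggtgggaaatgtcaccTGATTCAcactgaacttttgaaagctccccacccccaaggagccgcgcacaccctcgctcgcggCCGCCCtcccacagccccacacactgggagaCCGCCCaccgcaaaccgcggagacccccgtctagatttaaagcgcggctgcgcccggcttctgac
PHF19 (chr9:120868912-120869161, minus strand): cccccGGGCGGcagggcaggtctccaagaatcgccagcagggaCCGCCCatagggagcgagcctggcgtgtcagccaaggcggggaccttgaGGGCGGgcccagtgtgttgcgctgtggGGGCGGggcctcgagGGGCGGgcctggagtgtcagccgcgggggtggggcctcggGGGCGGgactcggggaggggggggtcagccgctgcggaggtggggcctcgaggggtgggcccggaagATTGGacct
EFNB2 has 40 CpG dinucleotides in this window, 3 GC boxes, 2 CCAAT matches and a TATAAA match. ENPP5 has 12 CpG, 2 GC boxes and 2 CCAAT matches. ANKRD1 has 4 CpG and no GC box, with 1 AP-1 match. FST has 20 CpG, 2 GC boxes, 1 CCAAT match and 1 AP-1 match, and PHF19 has 21 CpG, 6 GC boxes and 1 CCAAT match.

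The near-background genes that rose differed in base composition from the class they came from. Of the 404 that rose, 263 had a promoter entry, with a median of 15 CpG, a median GC content of 61.2% and a GC box in 53.2%. Over all 2279 near-background genes with an entry, the median was 5 CpG, the GC content 51.6% and the GC box share 31.2%. Restricting both to protein-coding genes left the medians at 15 and 5 CpG. Well expressed genes that rose had a median of 23 CpG, against 22 for all well expressed genes and 22 for those that fell. A GC box is present in 42.3% of all 27305 promoters of the table, CCAAT in 33%, TATAAA in 11.1%, the AP-1 motif in 6.6%, the CRE motif in 1.77% and the E2F motifs in 1.96%. The share with a TATAAA match was 13.7% for near-background risers and 17.6% for their class, and the AP-1 shares were 8.75% and 8.51%. These are shares of sequence matches, described without a test.

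The genes with the largest rises from near background encode a mixture of surface, secreted and signalling proteins. ENPP5, a membrane protein of the ectonucleotide pyrophosphatase family, had 8.26, 8.21 and 8.13 log2 units on the entinostat arrays, against 4.85, 4.98 and 4.76 on the vehicle arrays. EFNB2, the transmembrane ligand of EphB receptors, had 8.22, 8.07 and 7.90 with entinostat, against 4.83, 4.46 and 4.93 with vehicle. In both genes every entinostat array lay more than 2 log2 units above every vehicle array, at 10.1-fold for ENPP5 (adjusted p = 1.9e-11, limma) and 9.99-fold for EFNB2 (adjusted p = 4.6e-10). MMP13, a secreted collagenase, had 6.49, 6.31 and 6.36 with entinostat, against 3.67, 3.55 and 2.62 with vehicle, where 1 vehicle array lay about 1 log2 unit under the others. ANKRD1, an ankyrin-repeat protein induced by stretch and stress in muscle and other cells, had 7.45, 7.11 and 7.05 with entinostat, against 4.51, 4.74 and 4.14 with vehicle. SUSD4, a complement regulator, had 7.10, 7.09 and 6.99 with entinostat, against 4.69, 4.46 and 3.84 with vehicle. The largest rises and falls were named only from passing genes whose groups do not overlap. That held for 1454 of the 1513 rises and 5272 of the 5424 falls. The changes were 3.10 ± 0.21 for MMP13, 2.74 ± 0.18 for ANKRD1 and 2.73 ± 0.16 for SUSD4 (log2, SE).

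Further near-background rises of more than 2 log2 units were those of the adhesion receptor ADGRV1 (2.52), the tetraspanin TSPAN2 (2.51), the p21-activated kinase PAK5 (2.46), the long noncoding RNA LINC00624 (2.52), the zinc finger gene ZNF280A (2.14) and the metalloreductase family member STEAP1 (2.22). STEAP1 was the least even of them. Its entinostat arrays read 5.95, 4.67 and 4.68, against 3.54, 2.66 and 2.42 on the vehicle arrays, so the groups did not overlap but the standard error was 0.33. USP17L15, a member of a multicopy deubiquitinase family, rose by 3.28 ± 0.21 (SE). Its relatives USP17L12 and USP17L9P carry the same value as each other on every array, 9.40, 9.21 and 8.93 with entinostat, against 6.64, 6.10 and 6.19 with vehicle. Near-identical copies can share these probes, so the rise belongs to the family and not to a named copy.

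Some of the largest rises came from the intermediate class, among them those of CLGN and SLPI. CLGN, an endoplasmic reticulum chaperone of the testis, had 8.66, 8.52 and 8.52 with entinostat, against 5.94, 5.94 and 5.31 with vehicle. SLPI, a secreted inhibitor of leukocyte proteases, had 8.0, 8.28 and 8.05 with entinostat, against 5.89, 4.99 and 4.96 with vehicle. ANXA1, a phospholipid-binding protein, rose by 2.61 ± 0.14 and PAQR5, a membrane progestin receptor, by 2.57 ± 0.13 (SE). TREM1, a receptor of myeloid cells, had 8.66, 8.71 and 8.74 with entinostat, against 5.34, 5.14 and 5.20 with vehicle, the largest change of all genes at 3.48 ± 0.16 (SE). The summed intensity of the 6 measured myeloid and lymphoid markers overlapped between the groups, at 203.8 to 239.9 with entinostat and 219.5 to 235.8 with vehicle. Of these 6, LYZ, the lysozyme of myeloid cells, rose by 0.38 (adjusted p = 0.014, limma), SPI1, a transcription factor of myeloid cells, fell by 0.32 (adjusted p = 0.05 after rounding), and the monocyte marker CD14 was near background in both groups.

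Well expressed genes that rose by more than 2 log2 units numbered 6. CD24, a small surface glycoprotein, had 10.10, 10.02 and 10.03 with entinostat, against 7.68, 7.62 and 7.25 with vehicle. JAG1, a ligand of Notch receptors, had 10.10, 10.23 and 10.12 with entinostat, against 8.13, 7.96 and 8.32 with vehicle. SAMHD1, an enzyme that breaks down deoxynucleotides, had 9.30, 9.39 and 9.28 with entinostat, against 7.18, 7.25 and 7.15 with vehicle. All 3 changed from a level of plain expression to a higher one with groups well apart, at 5.79-fold, 4.04-fold and 4.38-fold. The others were VAT1L (3.14), the secreted hormone STC1 (2.27) and the heat shock protein HSPA2 (2.12). Below them came the actin-bundling protein PLS1 (1.80), the sialic acid lyase NPL (1.78), the chaperone HSPA4L (1.75), the MAP kinase phosphatase DUSP10 (1.70) and the calsyntenin CLSTN2 (1.53). Each of these rose by more after quantile normalization, for example 2.91 for CD24 and 2.44 for JAG1.

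Lists of genes by role are described by how many members passed each way, set against 10.4% higher and 37.2% lower over all genes. After quantile normalization these shares were 18.5% and 21.1%. Among well expressed genes they were 7.24% and 66.0% as deposited, and 23.3% and 37.5% after quantile normalization. The lists hold 32 groups, markers included. Members named only because they complete a count of 5 or fewer were chosen after their values were seen: they are VAMP2, DNM1, STMN3, EGFR, LRIG3, NOTCH3, DTX1, LTBP1, RCOR2, SIRT4, PCGF5, DNMT3B, CCND2, DMRT1 and STAG3. HEY1, DLL3, PLXNA2, PLXND1, EZH1 and AEBP2 were also named after their values were seen, beside members of the same families.

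Genes of synaptic vesicles and transmitter release rose in 12 of 24 measured members and fell in 2, with a median change of 0.36 beside -0.20 for all genes. SYN1, a phosphoprotein that tethers synaptic vesicles, had 8.58, 8.86 and 8.75 log2 units with entinostat, against 6.49, 6.38 and 6.31 with vehicle. SV2B, a vesicle membrane glycoprotein, had 7.30, 7.26 and 7.12 with entinostat, against 4.90, 4.98 and 5.4 with vehicle. The vesicle calcium sensors SYT4 and SYT1 rose by 1.49 ± 0.22 and 1.25 ± 0.14, and SYT11, which was bright already, by 1.42 ± 0.11 (SE). The falls were VAMP2 (-0.53), a fusion protein of vesicles, and DNM1 (-0.52), a GTPase of vesicle recycling. SV2A and the fusion protein STX1A did not pass, at 0.02 and -0.08, and their arrays overlapped. After quantile normalization 15 members were higher, SV2A among them (0.42), and 1 lower.

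Cytoskeletal and axonal genes of neurons also gave more rises than falls, with 14 of 26 members higher, STMN3 (-0.65) the only one lower, and a median of 0.35. CALB2, the calcium-binding protein calretinin, had 9.22, 9.42 and 9.30 with entinostat, against 6.26, 6.32 and 6.26 with vehicle, an 8.19-fold rise. KIF5C, a motor protein of axonal transport, had 7.57, 7.43 and 7.46 with entinostat, against 5.61, 5.90 and 5.57 with vehicle. CNTN1, an axonal adhesion molecule, had 7.56, 7.59 and 7.51 with entinostat, against 6.01, 5.81 and 6.02 with vehicle. These 3 genes came from the intermediate class, with no overlap between the groups, and NRXN2, a presynaptic adhesion molecule, rose from the same class by 1.15 ± 0.12 (SE). L1CAM, which read 10.58 or higher on all 6 arrays, changed by 0.08 and did not pass, and neither did KIF3C at -0.002. After quantile normalization 19 members were higher and none lower, with L1CAM at 0.41 and KIF3C at 0.39 past the threshold. Of the 2 measured neuron markers SYT1 rose, as given above, and TH, the synthesis enzyme of catecholamine neurons, changed by -0.25 and did not pass (adjusted p = 0.12, limma). Their summed intensity was 188.8 to 241.2 with entinostat and 125.4 to 151.0 with vehicle, and its part in these results was not tested.

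Junction and epithelial adhesion genes rose in 11 of 23 members and fell in none, with a median of 0.24. OCLN, a membrane protein of tight junctions, had 7.01, 7.08 and 6.97 with entinostat, against 4.88, 3.92 and 4.56 with vehicle. CLDN1, a sealing claudin of the same junctions, had 5.71, 5.47 and 5.14 with entinostat, against 3.76, 4.04 and 4.21 with vehicle. PKP2, a plaque protein of desmosomes, had 8.25, 8.48 and 8.19 with entinostat, against 6.88, 6.66 and 6.77 with vehicle. In each case the lowest entinostat array lay above the highest vehicle array, and the folds were 5.94 for OCLN, 2.71 for CLDN1 and 2.90 for PKP2. CLDN4 rose by 1.22 ± 0.17 (SE). The keratin KRT18 (0.24 as deposited, 0.59 and passing after quantile normalization) and CLDN3 (-0.36) did not pass on the deposited scale. Of 7 measured keratinocyte genes 2 fell and none rose, and 6 had means under 5 in each group. Of these 6, KRT5, KRT1 and DSG3 stayed at or under 4.80 on all 6 arrays. Of 10 mesenchymal genes 3 rose and 4 fell. ZEB2, a repressor of epithelial genes, had 6.10, 6.18 and 6.19 with entinostat, against 7.52, 7.40 and 7.47 with vehicle, and the receptor AXL fell by 0.83 on the log2 scale. SNAI1 (0.70) and TWIST1 (0.67), regulators of the same transition, rose, so the members of this list did not move together, and after quantile normalization 3 were higher and 2 lower.

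**Figure D3:**
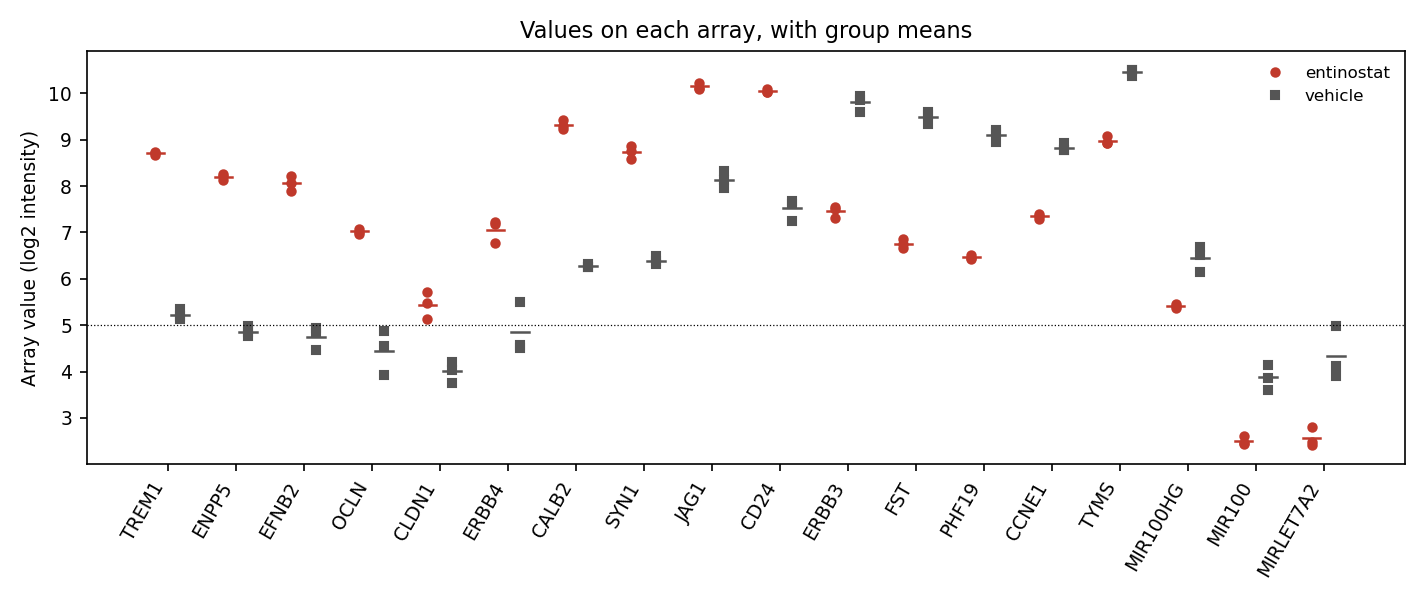
Log2 intensity on each of the 3 entinostat arrays (circles) and the 3 vehicle arrays (squares) for 18 genes, with group means as short lines and the limit of 5 log2 units dotted. All 18 genes show groups that do not overlap, which was a condition for naming many of them. They run from TREM1 at 8.66 to 8.74 with entinostat over 5.14 to 5.34 with vehicle, to MIR100 at 2.43 to 2.61 with entinostat under 3.61 to 4.15 with vehicle.

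Ephrins and their Eph receptors, which signal between touching cells and guide axons and vessels, split both ways on the deposited scale: 8 of 21 rose and 6 fell. After quantile normalization 9 were higher and 2 lower. Among the ligands EFNB2 rose as given above, and EFNA3 had 7.74, 7.82 and 7.98 with entinostat, against 6.51, 6.66 and 6.78 with vehicle. EFNA5 went the other way, with 7.76, 7.80 and 7.81 on the entinostat arrays, against 9.27, 8.90 and 9.20 on the vehicle arrays. Ligands of the same subclass thus moved in opposite directions, by 1.199 ± 0.115 for EFNA3 and -1.33 ± 0.12 for EFNA5 (log2, SE). The receptor EPHA3 rose by 1.18 ± 0.12, while EPHB3 (-0.24) and EPHA4 (-0.08) did not pass. Other guidance genes gave 7 rises and 5 falls in 18, and 10 and 5 after quantile normalization. SLIT2, a secreted repellent, had 7.88, 7.62 and 7.65 with entinostat, against 6.06, 5.75 and 5.48 with vehicle. The bright semaphorin receptors NRP1 (-0.88), PLXNA1 (-0.86) and PLXNB2 (-0.84) fell, while the well expressed plexins PLXNA2 (0.31) and PLXND1 (0.31) rose, so the receptors of this list moved both ways. The call of PLXND1 (adjusted p = 0.045, limma) was lost without vehicle replicate 2, at 0.19, and also without any single entinostat replicate. That of PLXNA2 was lost without vehicle replicate 2, at 0.24, and also without entinostat replicate 2.

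In the ErbB family 2 receptors changed in opposite directions. ERBB4, a receptor of neuregulins, had 7.18, 7.22 and 6.78 with entinostat, against 5.49, 4.51 and 4.58 with vehicle. ERBB3, its relative with little kinase activity and the bright member in vehicle, had 7.32, 7.54 and 7.51 with entinostat, against 9.95, 9.60 and 9.85 with vehicle. Both receptors were named from genes without overlap, at 4.59-fold higher for ERBB4 and 5.06-fold lower for ERBB3. The ligands HBEGF and NRG3 rose by 1.61 ± 0.15 and 0.84 ± 0.13 (SE), and EGFR rose by 0.56. LRIG3 (-0.42) fell, and the feedback inhibitors ERRFI1 (-0.03) and LRIG1 (-0.25) did not pass. In all, 4 of 14 members rose and 2 fell, and 5 were higher and 2 lower after quantile normalization.

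Other signalling lists held single large changes over a mixed remainder. Of 22 Notch genes, JAG1 (2.01), HEY2 (0.85), NOTCH3 (0.53) and DTX1 (0.50) rose and 8 fell, among them the nuclear effectors MAML2 (-0.97) and RBPJ (-0.72). HEY2, a transcriptional target of Notch, had 9.40, 9.51 and 9.35 with entinostat, against 8.64, 8.5 and 8.57 with vehicle. Another target, HEY1 (-0.42), and another ligand, DLL3 (-0.35), fell, so neither ligands nor targets moved together. The list gave 8 rises and 3 falls after quantile normalization, where HEY1 (-0.23) and DLL3 (-0.20) did not pass. Of 25 genes of TGF-beta, activin and BMP signalling 3 rose, namely BMP6 (1.43), GDF15 (1.41) and LTBP1 (0.37), and 10 fell. FST, the secreted antagonist of activin, had 6.67, 6.75 and 6.86 with entinostat, against 9.60, 9.33 and 9.53 with vehicle, the largest fall of all genes at 6.62-fold. After quantile normalization the same list gave 10 rises and 3 falls, with its median at 0.10 against -0.11 as deposited, so its direction depended on the scale. Of 27 Wnt genes 8 rose and 8 fell as deposited, and after quantile normalization 12 were higher and 3 lower, with a median of 0.19 against -0.07 as deposited. The pathway inhibitors NKD1 and DKK1 rose by 1.44 ± 0.15 and 0.98 ± 0.14, and of the Frizzled receptors FZD3 rose (1.09 ± 0.10) while FZD1 fell (-0.90 ± 0.10) (log2, SE). LRP6, a coreceptor, and FZD6 did not pass as deposited, at -0.19 and -0.02.

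**Figure D4:**
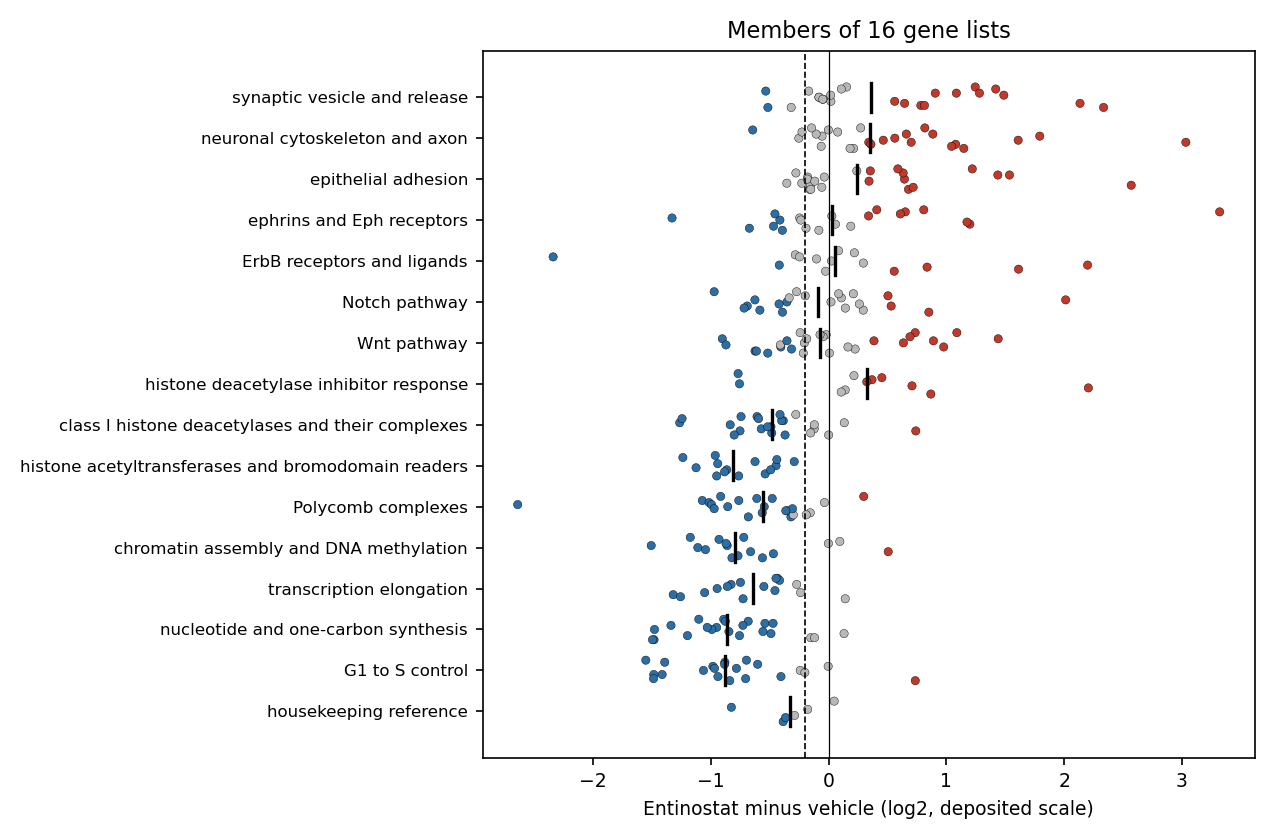
Change with entinostat (log2, deposited scale) of each measured member of 16 gene lists; red members rose, blue members fell, grey members did not pass, black bars are list medians and the dashed line is the median of all genes at -0.20. The synaptic and neuronal lists have medians of 0.36 and 0.35, and the lists for nucleotide synthesis and G1 to S control have medians of -0.86 and -0.88.

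Of the drug's own targets and their partners, 22 of 23 measured genes are well expressed in these cells. HDAC1 had 9.10, 9.28 and 9.28 with entinostat, against 9.30, 9.06 and 9.30 with vehicle, and the groups overlapped, with a change of 0.0 that became 0.40 and passed after quantile normalization. HDAC2 fell by 0.38 on the log2 scale (adjusted p = 0.0088, limma), which after quantile normalization was -0.06 and did not pass. HDAC3 (-0.12) and HDAC8 (-0.28) did not pass. Of 23 class I deacetylases and complex members 16 fell, with a median of -0.48, equal to the median of all well expressed genes. SIN3A, the scaffold of the Sin3 complex, had 8.38, 8.51 and 8.49 with entinostat, against 9.84, 9.59 and 9.75 with vehicle. CHD3, a remodelling ATPase of NuRD, had 8.87, 8.92 and 9.18 with entinostat, against 10.37, 10.11 and 10.24 with vehicle. Their changes were -1.26 and -1.25, and RCOR2 (0.74), a CoREST scaffold of the intermediate class, was the one member that rose. After quantile normalization 5 members were higher and 7 lower. KDM1A, the demethylase of CoREST, did not pass as deposited (-0.12) and was higher after quantile normalization (0.25), as was HDAC3 (0.29). Of the other 14 deacetylases 7 fell, led by HDAC7 (-0.77), and HDAC9 (0.75) and SIRT4 (0.45) rose. After quantile normalization 4 of these were higher and 3 lower.

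The opposing enzymes and readers of acetylation fell without exception: 14 of 14 measured histone acetyltransferases, coactivators and bromodomain proteins were lower, with a median of -0.81, and 10 were lower after quantile normalization. Of these 14 genes 12 are well expressed, a class in which 66.0% of all genes fell. CREBBP, a broad histone acetyltransferase, had 10.17, 10.25 and 10.19 with entinostat, against 11.21, 11.07 and 11.22 with vehicle. KAT7, an acetyltransferase of histones at origins and promoters, had 7.32, 7.42 and 7.35 with entinostat, against 8.77, 8.40 and 8.65 with vehicle. Neither gene had overlapping groups, and BRD3, a reader of acetylated histones, fell by 0.95. Of 22 Polycomb genes 17 fell and PCGF5 (0.30) rose, with a median of -0.56, and after quantile normalization 3 were higher and 10 lower. Well expressed genes, with 66.0% falls and a median of -0.48 over the class, make up 19 of the 22. PHF19, an accessory subunit that brings PRC2 to chromatin, had 6.42, 6.45 and 6.51 with entinostat, against 9.20, 8.94 and 9.17 with vehicle, 6.24-fold lower. The catalytic subunit EZH2 had 9.37, 9.47 and 9.39 with entinostat, against 9.59, 9.27 and 9.48 with vehicle, and did not pass (-0.04), while after quantile normalization it was 0.35 higher. PHF19 and EZH2 therefore gave different results on both scales. MTF2, another accessory subunit, was close to EZH2, with -0.16 as deposited and 0.25 after quantile normalization. The other catalytic subunit EZH1 (-0.32) and the accessory subunit AEBP2 (-0.48) fell as deposited, and neither passed after quantile normalization, at 0.08 and -0.10.

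Chromatin assembly and DNA methylation genes fell in 13 of 16 members, with DNMT3B (0.51) higher and a median of -0.80. The counts after quantile normalization were 11 lower and 3 higher. Of these 16 genes 14 are well expressed, a class in which 66.0% of all genes fell. TET2, an oxidase of methylcytosine, had 6.89, 6.98 and 7.19 with entinostat, against 8.70, 8.33 and 8.55 with vehicle, and HIRA, a histone chaperone, fell by 1.18 and UHRF1, which links histone marks to DNA methylation, by 1.05. NAP1L1 (0.10) and ASF1B (-0.002) did not pass as deposited, and both were higher after quantile normalization (0.50 and 0.41). Among transcription elongation genes 13 of 16 fell and none rose, with a median of -0.64. The counts after quantile normalization were 8 lower and 1 higher, with a median of -0.315. Well expressed genes also make up 13 of these 16. MEPCE, a capping enzyme of the 7SK RNA that holds the elongation kinase inactive, had 8.17, 8.33 and 8.25 with entinostat, against 9.63, 9.43 and 9.64 with vehicle. NELFCD and NELFB, subunits of the pausing factor NELF, fell by 1.26 and 0.95, and the kinase CDK12 by 1.05, whereas the kinase CDK9 (-0.24) and its inhibitor HEXIM1 (0.14) did not pass.

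Genes that carry cells from G1 into S phase fell in 17 of 21 members, with a median of -0.88, and CCND2 (0.74) rose. CCNE1, the cyclin that starts S phase, had 7.28, 7.35 and 7.40 with entinostat, against 8.93, 8.78 and 8.77 with vehicle. CCNE2 had 6.15, 5.90 and 5.97 with entinostat, against 7.71, 7.48 and 7.49 with vehicle. The phosphatase CDC25A and the transcription factor E2F3 fell by 1.49 and 1.41, and CCND1 (-0.20) and RB1 (-0.24) did not pass. After quantile normalization 16 members were still lower. Enzymes of nucleotide and one-carbon synthesis fell in 19 of 22 members, with a median of -0.86, and in 16 after quantile normalization. TYMS, which makes thymidylate, had 8.93, 9.08 and 8.93 with entinostat, against 10.51, 10.38 and 10.50 with vehicle. PFAS, an enzyme of purine synthesis, had 6.68, 6.94 and 6.95 with entinostat, against 8.48, 8.18 and 8.41 with vehicle. RRM1, a ribonucleotide reductase subunit, fell by 1.34, and IMPDH2 (0.13) and PPAT (-0.15) did not pass. Both medians lie further down than the median of all well expressed genes, -0.48, to which most of these genes belong.

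The large falls among well expressed genes outside these lists were of varied function. FXYD3, a regulator of the sodium pump, had 6.76, 7.14 and 7.14 with entinostat, against 9.59, 9.55 and 9.66 with vehicle. WNK4, a kinase of ion transport, had 6.15, 6.08 and 6.38 with entinostat, against 8.54, 8.49 and 8.87 with vehicle. HCFC1, a transcriptional scaffold encoded on the X chromosome, had 8.39, 8.46 and 8.55 with entinostat, against 10.66, 10.52 and 10.78 with vehicle. These genes, named from those without overlap between the groups, were 6.0-fold, 5.4-fold and 4.55-fold lower. Among the 20 largest falls were those of the zinc finger genes ZNF436 (-2.38), ZNF827 (-2.21), ZNF689 (-2.20) and PATZ1 (-2.19). Others among the 20 were the RNA-binding protein IGF2BP1 (-2.11), the mRNA export adaptor ALYREF (-2.03), the haem synthesis enzyme UROD (-2.03), the DNA repair glycosylase UNG (-2.18), the chromatin protein JADE2 (-2.19), SERTAD4 (-2.42), the cytokine IL16 (-2.09) and the small GTPase RHOJ (-1.93). These 20 genes also fell after quantile normalization, the smallest of the values given here being -1.51 for RHOJ.

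The 130 falls from near background were those of 71 protein-coding, 31 microRNA and 23 long noncoding genes and a few of other kinds. Of the 15 largest, 11 were of microRNA genes. The 2 largest come from 1 locus on chromosome 11, where the let-7a-2 and miR-100 hairpins lie in the long noncoding RNA gene MIR100HG. Their mature sequences from RefSeq (GRCh38.p14) are given because these hairpins carry the largest falls of the class, together with that of the third hairpin of the locus. Capitals mark the seed, bases 2 to 8.
hsa-let-7a-5p: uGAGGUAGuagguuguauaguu
hsa-miR-100-5p: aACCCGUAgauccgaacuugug
hsa-miR-125b-5p: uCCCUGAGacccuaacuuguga
The seeds of the 3 differ. MIRLET7A2 had 2.49, 2.80 and 2.41 log2 units on the entinostat arrays, against 4.98, 3.91 and 4.11 on the vehicle arrays, and MIR100 had 2.61, 2.46 and 2.43 with entinostat, against 4.15, 3.61 and 3.87 with vehicle. The groups did not overlap in either, by the naming rule, and the changes were -1.77 ± 0.22 (adjusted p = 7.3e-06, limma) and -1.38 ± 0.13 (adjusted p = 3.9e-07). MIR100HG and MIR125B1 were added after the values were seen. The host transcript MIR100HG had 5.46, 5.41 and 5.37 with entinostat, against 6.68, 6.14 and 6.51 with vehicle, and fell by 1.03 on the log2 scale. MIR125B1 had 3.29, 3.18 and 3.39 with entinostat, against 3.65, 3.70 and 3.32 with vehicle, and did not pass (-0.27, adjusted p = 0.31). These probe sets read precursor or host sequence, and the level of a mature microRNA was not measured by them. Over all 648 near-background microRNA genes 47 rose and 31 fell, with a median of 0.02, and after quantile normalization 18 were higher and 27 lower, with a median of -0.02. MIR3145 (-1.10) and MIR3126 (-1.07) were the other near-background genes to fall by more than 1 log2 unit.

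Genes known to respond to deacetylase inhibitors in other cells gave 6 rises and 2 falls in 11, and 9 and 2 after quantile normalization. CLU, the secreted chaperone clusterin, had 7.76, 7.86 and 7.84 with entinostat, against 5.86, 5.47 and 5.52 with vehicle. TXNIP, an inhibitor of thioredoxin, had 10.10, 10.07 and 10.13 with entinostat, against 9.44, 9.16 and 9.10 with vehicle. Both rose with no overlap, while the actin-severing protein GSN (-0.77) and the transcription factor KLF6 (-0.76) fell. Stress genes were mixed. KEAP1, the adaptor that restrains the oxidative response factor NRF2, had 6.82, 6.79 and 7.11 with entinostat, against 8.56, 8.45 and 8.57 with vehicle, and HMOX1, a target of that factor, had 7.91, 8.04 and 7.92 with entinostat, against 7.15, 6.91 and 7.19 with vehicle. Over 15 genes of the oxidative response 5 rose and 4 fell, and after quantile normalization 8 were higher and 2 lower. Of 14 genes of the unfolded protein and integrated stress responses 3 rose, led by ERN1 (1.00), a sensor of the endoplasmic reticulum, and 6 fell, led by ATF5 (-1.39), a balance that turned over after quantile normalization, with 6 higher and 2 lower. Of 10 metallothioneins, MT1F (1.04) and MT1X (0.71) were among 3 that rose, and MT1E (-0.86) and MT2A (-0.58) fell. These paralogs are close in sequence, so a probe set may hold signal of another member.

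Matrix proteases and their inhibitors gave 3 rises and 4 falls in 16, and 5 and 3 after quantile normalization. The collagenase MMP1 had 5.97, 5.79 and 6.09 with entinostat, against 4.73, 4.44 and 4.74 with vehicle, and so rose from near background as MMP13 did. The membrane-bound MMP14 and MMP16, which were bright in vehicle, fell by 0.87 and 1.23, and the inhibitors TIMP1 (-0.24) and TIMP2 (-0.10) did not pass. Germline genes, most of them silent in somatic cells, lay near background in 17 of 23 cases. TEX14 (0.96), TDRD5 (0.80), TEX19 (0.64), STK31 (0.59) and DMRT1 (0.42) rose and STAG3 (-0.32) fell. TEX14, a protein of germ cell bridges, reached 5.93, 5.85 and 6.03 with entinostat, against 5.30, 4.81 and 4.81 with vehicle, a small rise next to that of CLGN. Only 4 genes of antigen presentation were measured, of which ERAP2 (-0.98) and TAPBP (-0.64) fell. Of 6 common reference genes 3 fell, with a median of -0.33, namely TBP (-0.83), GAPDH (-0.39) and PGK1 (-0.37). All 6 are well expressed, a class in which 66.0% of all genes fell. After quantile normalization TBP alone was lower (-0.41), GAPDH was at -0.02 and PGK1 at 0.03.

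Entinostat was also given on top of MAPKi, and that comparison shares no array with the one above. The combination arrays against the MAPKi arrays gave 1267 genes higher (8.68%) and 5933 lower (40.6%). Of the 1513 genes that rose with entinostat alone, 876 rose there too, 57.9% of these and 69.1% of the rises with MAPKi. Of the 5424 that fell, 4372 fell there too, 80.6% of these and 73.7% of the falls with MAPKi. The difference between the changes was tested for each gene as an interaction, (combination minus MAPKi) minus (entinostat minus vehicle). It was positive and passing for 462 genes (3.16%) and negative for 706 (4.84%). Of the genes that rose with entinostat alone 348 had an interaction, which in 320 pointed towards a smaller rise or none under MAPKi. Of those that fell 480 had one, in 343 towards a smaller fall or none.

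Of the 404 near-background rises 211 (52.2%) were also called higher under MAPKi, where 7.59% of all genes of the class were. An interaction passed for 61 of the 404, in 60 towards a smaller rise or none. Of the 685 intermediate rises 436 were called higher under MAPKi, with 157 interactions, and of the 424 well expressed rises 229, with 130. LINC00624 changed by 2.79 in MAPKi-treated cells and 2.52 without MAPKi, and VAT1L and CD24 of the well expressed class by 3.15 and 2.67 with MAPKi and by 3.14 and 2.54 without, with interactions of 0.01 to 0.28 that did not pass as deposited. After quantile normalization that of LINC00624 was 0.88 and passed (adjusted p = 0.0024, limma). TREM1, of the intermediate class, changed by 0.05 with MAPKi against 3.48 without, an interaction of -3.43 ± 0.22 (SE; adjusted p = 2.7e-07, limma). The same held for ANKRD1, at 0.17 with MAPKi against 2.74 without, and for CXCL8, the chemokine interleukin 8, at -0.16 against 2.24. MMP1 and CLDN1 gave -0.19 and -0.05 with MAPKi, against 1.31 and 1.44 without. ENPP5, EFNB2 and MMP13 lay between, with rises of 1.70, 1.84 and 0.97 under MAPKi that were smaller than those without it, with a passing interaction in each.

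Falls also differed from gene to gene. ERBB3 changed by -2.33 with MAPKi and -2.34 without, and FXYD3 by -2.17 and -2.58, with no passing interaction in either. FST changed by -0.14 with MAPKi against -2.73 without, an interaction of 2.59 (adjusted p = 1.2e-06, limma), and WNK4 by -0.43 against -2.43. MAPKi alone, against vehicle, changed FST by -3.38 and WNK4 by -3.00. Whether that lower starting level limited a further fall was not tested. REM1, a small GTPase, and EDN1, the vasoconstrictor peptide endothelin, fell by 1.89 and 1.53 with entinostat alone, while with MAPKi they changed by 0.09 and 0.61. The opposite case was ANGPTL7, a secreted angiopoietin-like protein, which changed by -0.34 with entinostat alone and by -5.37 under MAPKi. Under MAPKi 40.6% of all genes and 69.0% of well expressed genes were lower with entinostat. Of the 14 acetyltransferases and readers, 12 of them well expressed, 13 were lower under MAPKi and 14 without it. In G1 to S control, where 18 of 21 members are well expressed, 12 fell under MAPKi and 17 without, with 7 interactions that passed.

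**Figure D5:**
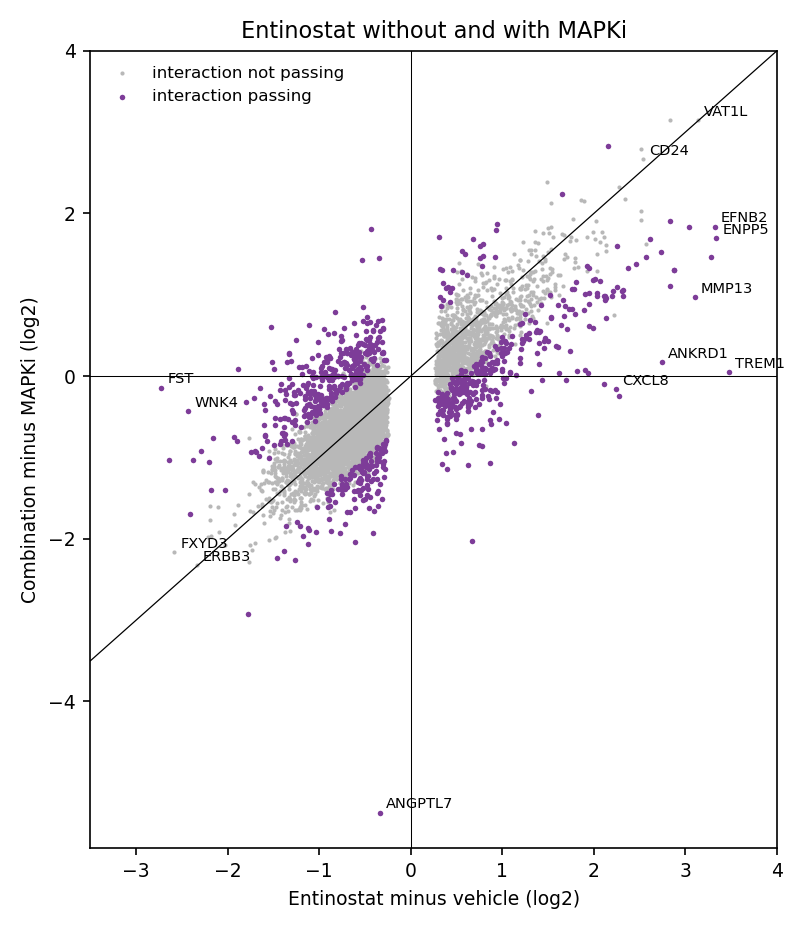
Change with entinostat under MAPKi (combination minus MAPKi, log2) against the change without it (entinostat minus vehicle, log2) for the genes that rose or fell with entinostat alone; purple genes have a passing interaction and the diagonal marks equal changes. TREM1, ANKRD1, CXCL8, FST and WNK4 lie near 0 on the vertical axis, and VAT1L, CD24 and ERBB3 lie on the diagonal.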

How the data were processed

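RNA of Hs695T cells was measured on 12 single-colour Affymetrix arrays. The values are linear probe set intensity, which the authors made with RMA in Transcriptome Analysis Console, per the submitters' processing notes. For these tools no version is given in the sources used here, and neither is a genome build or any use of the spike-in standards in scaling. All 12 columns of the deposited table were used. RMA corrects for background, which compresses low levels, and in its standard form also normalizes between arrays. Whether that step was applied here is not given in the sources used, and the deposited arrays differed in mean intensity, as given above. Precision is set by having 3 arrays in a group.

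Of 29592 rows, 14783 carry 1 gene symbol through the platform annotation, updated through gene identifiers in the RefSeq table (GRCh38.p14), and none carries several. For 169 genes with more than 1 row the brightest row was kept, giving 14599 genes: 11734 protein-coding, 1361 long noncoding and 1020 microRNA genes. The deposited intensity was converted to log2 without a further background step. A mean for each of 4 groups was fitted with lmFit of limma 3.58.1 (R 4.3.3), followed by contrasts.fit and eBayes, with a threshold of 0.05 after Benjamini-Hochberg adjustment, and the fit was tested on simulated data. Alternatives covered the scaling between arrays, dim genes, the variance model, the rows of a gene, the arrays in the fit, the class limits and a replicate block. Arrays with the same number in entinostat and vehicle deviated together with r of -0.11 to 0.06, so the numbers were not taken to pair them.

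Genes were named by rule. Among passing genes whose entinostat and vehicle arrays do not overlap, these were the 20 largest rises and falls and the 15 largest in the near-background and well expressed classes. Also named were up to 4 passing and 2 other members of each of 32 lists, class I deacetylases, markers and the 5 largest interactions each way. The members and lists were chosen with earlier results of these data known. The figures were drawn with matplotlib 3.10.9.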

Additional observations from a re-analysis of the deposited data

Results flagged for a closer look

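The genes and counts gathered here are those whose change with entinostat differed by test between cells with MAPKi and cells without it. Each value is the interaction, (combination minus MAPKi) minus (entinostat minus vehicle), in log2 units from limma, and each passed at an adjusted p under 0.05 over all 14599 genes. In all, 462 interactions were positive and 706 negative.

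Among genes with large rises, the interactions were -3.43 for TREM1, -2.58 for ANKRD1, -2.40 for CXCL8, -2.14 for MMP13, -1.64 for ENPP5, -1.48 for EFNB2, -1.21 for SUSD4 and -1.09 for PAK5. The USP17 copies gave -1.82 for USP17L15 and -1.57 for both USP17L12 and USP17L9P. SLPI had -1.72, PAQR5 -1.10, ANXA1 -0.93 and CLGN -0.93, and among well expressed risers SAMHD1 had -1.41, DUSP10 -1.13, TXNIP -0.80, SYT11 -0.55 and CLSTN2 -0.52. CLU had -1.16. These rises were smaller or absent with MAPKi, where TREM1 (0.05), ANKRD1 (0.17), CXCL8 (-0.16) and TXNIP (0.07) did not pass.

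Signalling, neuronal and junction genes in the same direction were MMP1 (-1.50), CLDN1 (-1.49), SLIT2 (-1.33), GDF15 (-1.26), CNTN1 (-1.26), ERBB4 (-1.22), CALB2 (-1.21), MT1F (-1.06), ERN1 (-0.75), HBEGF (-0.74) and the pigment granule gene PMEL (-0.72). RBPJ, which fell without MAPKi, had -0.54. ANGPTL7 stood apart with -5.03. It fell by 0.34 on the log2 scale without MAPKi, a call that 5 of the 6 fits without 1 array did not make.

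Positive interactions belong mostly to genes whose fall was smaller or absent with MAPKi. They were 2.59 for FST, 2.13 for EDN1, 2.00 for WNK4, 1.98 for REM1, 1.61 for PHF19, 1.598 for EFNA5, 1.35 for ZNF436, 1.204 for KLF6, 1.19 for RHOJ, 1.18 for CDC25A, 1.15 for ZNF689 and 1.08 for MIR100. Smaller ones were TYMS at 0.97, AXL at 0.91, UNG at 0.78, MT2A at 0.75, UHRF1 at 0.74, SERTAD4 at 0.72, GSN at 0.65, ALYREF at 0.64, S100B at 0.57 and CCNE2 at 0.55. Several of these genes were already lower with MAPKi alone, against vehicle. The change was -3.38 for FST, -3.00 for WNK4, -3.90 for EFNA5, -3.05 for KLF6, -2.225 for PHF19, -2.13 for ZNF436, -2.31 for RHOJ, -1.70 for ZNF689 and -1.245 for MIR100. The part of this in the interactions was not tested. KLF6, for example, fell with entinostat alone and was higher with it under MAPKi (0.45). ASF1B (1.32) and KRT18 (0.90) did not pass with entinostat alone and were higher with it under MAPKi, and EGFR (0.72) and PLXNA2 (1.39) rose on both backgrounds, by more with MAPKi.

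After quantile normalization the interactions of CLGN, ANXA1, ZNF689, ALYREF, ERBB4, HBEGF, CCNE2 and MT1F kept their sign and no longer passed, with adjusted p of 0.061 to 0.16. They are the 8 lost of 60 passing interactions among genes named in the text. Another 22 named genes came to pass on that scale, LINC00624 (0.88) among them.

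The 14809 rows of the table without a gene name were outside the comparison. In a fit of all rows, 1156 of them were higher with entinostat (7.81%) and 3186 lower (21.5%), with a median change of -0.11.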

How the results depend on the processing

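The counts moved with scaling and with the class limits. Quantile normalization gave 2696 genes higher and 3082 lower, and subtracting each array's median gave 3027 higher. With quantile normalization 1362 well expressed genes were higher and 2195 lower, with a median of -0.10. With medians subtracted 852 were higher, with a median of -0.27, and near background 1027 were higher and 29 lower, with a median of 0.21. Class limits of 4.5 and 7 gave 255 near-background rises and 75 falls. Limits of 6 and 8 gave 777 rises, 530 falls and a median of -0.042 there, and 215 rises and 2427 falls among well expressed genes. Near-background falls numbered 299 when the MAPKi arrays set the class, and 71 among protein-coding genes alone, an alternative chosen after seeing the data. Positive interactions numbered 907 after quantile normalization and 854 with medians subtracted. Leaving out 1 array at a time gave 80 to 151 near-background falls, with 80 reached without vehicle replicate 1, and well expressed medians of -0.53 to -0.42. The well minus near-background difference stayed negative under each alternative run. As the same-numbered arrays are not shown to be paired, the replicate block is given only as a check: it gave 1539 genes higher and 5465 lower. Of 205 genes named in the text, 16 passed on 1 scale only and had the other sign after quantile normalization. Their values there were 0.25 for KDM1A, 0.35 for EZH2, 0.084 for EZH1, 0.25 for MTF2, 0.41 for ASF1B, 0.39 for KIF3C, 0.28 for EPHA4, 0.23 for ERRFI1, 0.18 for LRP6, 0.35 for FZD6, 0.30 for TIMP2, 0.25 for PPAT, 0.032 for PGK1, 0.29 for HDAC3, 0.003 for LRIG3 and 0.068 for STAG3. Genes that passed on neither scale are outside this count. Among these, HDAC8, STX1A, EPHB3, LRIG1, CDK9, CCND1, RB1 and TIMP1 also turned from negative to positive after quantile normalization. On that scale HDAC1 (0.40), HEXIM1 (0.51), IMPDH2 (0.51), KRT18 (0.59), L1CAM (0.41), NAP1L1 (0.50) and SV2A (0.42) came to pass, and AEBP2 (-0.10), ANGPTL7 (-0.27), DLL3 (-0.20), DNM1 (-0.09), EZH1, HEY1 (-0.23), GAPDH (-0.02), HDAC2 (-0.06), MLANA (-0.31), MT2A (-0.24), SPI1 (-0.18) and STMN3 (-0.29) no longer did. Leaving out 1 array ended the call of ANGPTL7 (-0.37 to -0.25, all but vehicle replicate 3), PCGF5 (0.23 to 0.31, all but vehicle replicate 1), SPI1 (-0.34 to -0.27, all but entinostat replicate 2), DMRT1 (0.36 to 0.42, entinostat or vehicle replicates 2 or 3), STAG3 (-0.29 to -0.27, entinostat replicate 1, vehicle replicates 1 or 3), PGK1 (-0.33 without entinostat replicate 1, -0.31 without vehicle replicate 3), LTBP1 (0.32 without entinostat replicate 2, 0.27 without vehicle replicate 2), PLXND1 (0.19 to 0.34, all but vehicle replicates 1 and 3), PLXNA2 (0.27 without entinostat replicate 2, 0.24 without vehicle replicate 2), EZH1 (-0.30 to -0.27, entinostat replicate 2, vehicle replicates 1 or 3), DNM1 (-0.36 without entinostat replicate 1) and GAPDH (-0.30 without vehicle replicate 1). No other named gene lost its call in these fits, and CLDN3 (-0.49), EPHB3 (-0.34) and TIMP1 (-0.29) came to pass without vehicle replicate 2. The cause of these shifts was not tested. With 3 arrays a group from 1 line, no result here was checked in another source of cells.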
